A study of Mus musculus with 8 samples.

Results

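Hematopoietic stem cells (HSCs) sorted through a gate around their mean size were compared with HSCs that had not been separated by size, to ask how well the mean-size gate stands for the whole sort. Members were chosen by the sample titles: 2 Medium libraries and 2 unfractionated libraries (All), numbered 1 and 2 in each group, make up 4 of the 8 size-sort libraries. Every library came from 10000 cells of C57BL/6J mice, flushed from long bones and freed of lineage-positive cells. Live cells in G0/1 phase were sorted on CD117, Sca-1, CD150 and CD48. Medium cells had a forward scatter within 10% of the mean of the preparation. Cells of the All group were taken without a size gate, so it also contains cells of Medium size. The labels name no treatment or engineered allele for these groups, and the age, sex and number of the mice per library are not given in the labels used here. The remaining 4 libraries, 2 of the smallest 10% of cells (Small) and 2 of the largest 10% (Large), share the estimate of spread and are quoted only where they place Medium.

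HSCs are rare marrow cells that sustain all blood lineages, most of them resting outside the cell cycle. Kit receives the stem cell factor signal, Sca-1 (encoded by Ly6a) and CD150 (Slamf1) mark the stem cell fraction, and CD48 (Cd48) is characteristic of more advanced progenitors. Larger cells generally carry more ribosomes and mitochondria, and cells on their way into division grow, which is why size, stem cell identity and the cell cycle are studied together in HSCs. In bulk RNA, fewer cells of a type and less RNA per cell cannot be told apart, and all values here are relative to the other transcripts of a library.

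Libraries of the 4 were of similar depth, with 14745907 to 16838448 estimated counts, and a count of 3 corresponded to 0.169 to 0.209 CPM (counts after scaling to a library total of 1000000). The libraries differed in ways the groups do not explain. In All 1, 4 Y-linked transcripts (Ddx3y, Kdm5d, Uty and Eif2s3y) summed to 4.25 CPM, against 90.4 to 133 CPM in the other 7 libraries. Xist, which silences the inactive X chromosome, stood at 261 CPM in All 1, 180 in All 2, and 249 and 196 in Medium 1 and 2. In Small 1 and 2 Xist was at 14.3 and 119 CPM, and in Large 1 and 2 at 74.3 and 183 CPM. Medium 1 and All 1 therefore do not match in Y-linked transcripts, although they lay close in Xist, where Small 1 and Large 1 were lower. Nothing in the labels says that a number marks the same animals or day, or that a group's libraries are from different mice. Differences within a number are given as descriptions for that reason. The part of sex in the differences below was not tested.

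Transcripts of all 4 sort antigens were present in all 4 libraries, and none separated the groups. Kit was at 662 and 841 CPM in Medium 1 and 2 and at 655 and 1017 CPM in All 1 and 2. Ly6a followed the number rather than the gate, with 90.4 and 57.6 CPM in Medium 1 and All 1 and 366 and 307 CPM in Medium 2 and All 2. Slamf1 was at 22.1 and 8.74 CPM in Medium and at 15.9 and 22.6 CPM in All. Cd48 was low in 1 library alone, All 2, at 12 CPM, against 67.4 in All 1 and 76.8 and 66.1 in Medium 1 and 2. The fitted log2 differences (Medium minus All) of these 4 genes ran from -0.32 to 0.85, and each had an edgeR adjusted p = 1.

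Among libraries of the same number, Medium lay closer to All than Small or Large did, when distance was taken as the median absolute log2 CPM difference over the 16066 tested genes. Within number 1 the distance to All was 0.29 for Medium, 0.354 for Small and 0.378 for Large. Within number 2 it was 0.395 for Medium, 0.437 for Small and 0.548 for Large. These distances share the All library of their number, so they are set side by side and not tested.

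Both Medium-to-All distances were smaller than the distance between replicates of one group, 0.472 for Medium 1 to Medium 2 and 0.632 for All 1 to All 2. Across numbers the order failed for All 1 and held for All 2. Medium 2 stood 0.509 from All 1, where Large 2 stood 0.349 and Small 2 stood 0.569. Medium 1 stood 0.61 from All 2, where Small 1 stood 0.712 and Large 1 stood 0.843. A median difference of 0.29 is a factor of 1.22, and 14.9% of genes differed by more than 1 log2 unit (2-fold) between Medium 1 and All 1, compared with 21.5% between Medium 2 and All 2 and 33.0% between the All libraries.

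The order was not the same by every measure or across numbers. Pearson correlation across genes (which are not independent replicates) was 0.955 for Medium 1 with All 1 and 0.957 for Large 1 with All 1, and it was 0.924 for Medium 2 with All 2 against 0.921 for Small 2. Medium 2 was nearer to Small 2 (0.369) and to Large 2 (0.38) than to All 2 (0.395). All 2 was the more isolated of the All libraries, with distances to the other 7 libraries from 0.395 to 0.843.

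**Figure D1:**
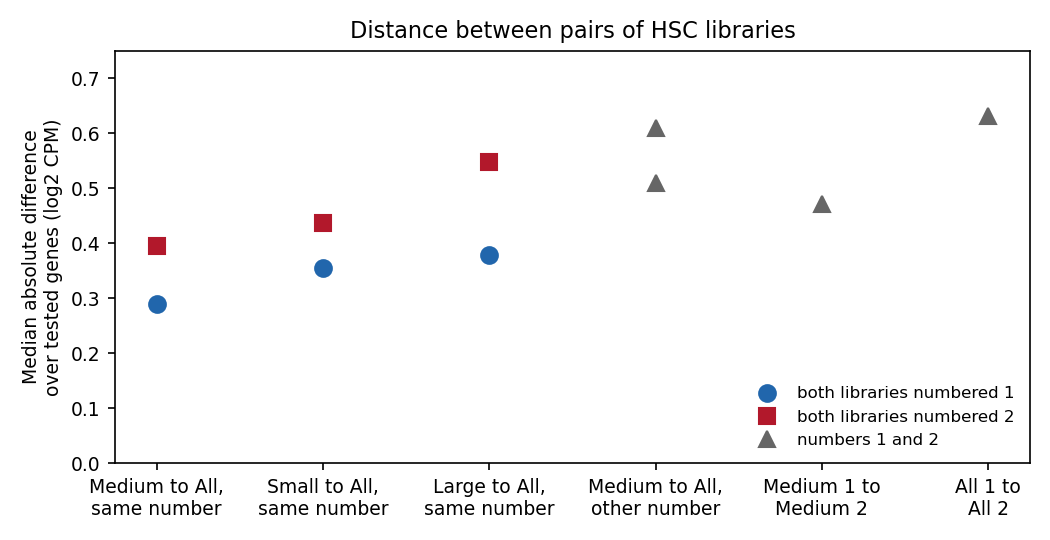
Median absolute log2 CPM difference over 16066 tested genes for pairs of libraries (vertical axis, from 0), with circles for pairs numbered 1, squares for pairs numbered 2 and triangles for pairs of unlike number. Medium lies nearest to All within each number (0.29 and 0.395), below the distance between the Medium replicates (0.472) and between the All replicates (0.632).

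No gene separated Medium from All beyond the spread between replicates in the main test. By edgeR's quasi-likelihood test with Benjamini-Hochberg adjustment, 0 of 16066 genes (0%) passed an adjusted p of 0.05, and the smallest adjusted p was 1. Unadjusted p-values under 0.05 were found for 127 genes higher in Medium (0.79% of those tested) and for 135 lower (0.84%), 262 together, where uniformly spread p-values would give 803. The main test had no term for the number, so spread shared by libraries of a number stayed in its error. With the number as a block, edgeR gave 845 genes at an unadjusted p under 0.05 and called 0. DESeq2 called 6 genes (0.0373%), limma-voom 0, and limma on log2 TPM 0. An exact test of 2 against 2 libraries cannot give a two-sided p under 0.333.

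The absence of calls is not a measure of likeness, because the intervals were wide. The median standard error (SE) of a log2 difference was 0.51, and the median 95% interval reached 1.21 log2 units to either side, a factor of 2.31. For 4782 genes (29.8%) the whole interval lay within 1 log2 unit of no difference. Among the 9694 genes with a mean of at least 10 CPM that share was 49.1%. For the other genes a 2-fold difference was not excluded at this depth and number of libraries, in a fit without a term for the number.

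Within-number differences did not repeat across numbers. Over all tested genes, the difference Medium 1 minus All 1 and the difference Medium 2 minus All 2 correlated at 0.0358 (Pearson) and 0.000795 (Spearman). The same direction in both numbers was seen for 7960 genes (49.5%), of which 3956 were higher (24.6%) and 4004 lower (24.9%). Both Medium libraries stood above both All libraries for 1819 genes (11.3%), and below them for 1795 (11.2%). Those percentages are the background for every gene list below.

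**Figure D2:**
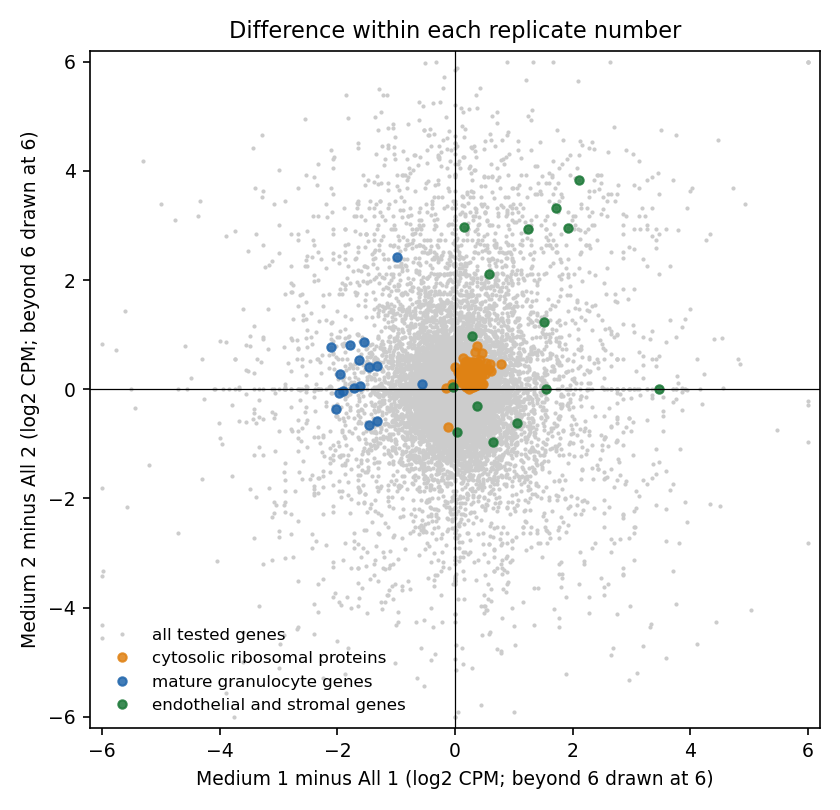
Each point is a gene, at its log2 CPM difference Medium 1 minus All 1 (horizontal) and Medium 2 minus All 2 (vertical), with values beyond 6 drawn at 6. The grey cloud of 16066 genes has no tilt (Pearson 0.0358), ribosomal protein genes (orange) cluster just up and right of the centre, mature granulocyte genes (blue) lie to the left, and endothelial and stromal genes (green) lie mostly to the right.

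Named genes were chosen by smallest unadjusted p among genes with a mean of at least 5 CPM whose libraries did not overlap between groups, 10 in each direction, so their separation is a product of the choice. Igfbp7 and Sparc had the smallest p-values on the higher side. Igfbp7, a secreted protein that binds insulin-like growth factors (chr5:77349240-77408041, minus strand, GRCm38), was at 13.5 and 15.8 CPM in Medium 1 and 2 and at 2.51 and 0.619 CPM in All 1 and 2, a fitted log2 difference of 3.23 (SE 0.74, edgeR adjusted p = 1, DESeq2 adjusted p = 0.0238). Sparc, a secreted matrix glycoprotein (chr11:55394500-55423183, minus strand), was at 24.3 and 29.6 CPM in Medium and at 6.34 and 3.71 CPM in All, a log2 difference of 2.42 (SE 0.62). Over the Small and Large libraries Igfbp7 ran from 4.36 to 7.2 CPM and Sparc from 6.28 to 17 CPM, below both Medium libraries.

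P3h1, an enzyme that hydroxylates prolines of collagen, had close replicates, with 12.4 and 11.9 CPM in Medium and 5.15 and 5.12 CPM in All. Small and Large held P3h1 at 10 to 15.4 CPM, as high as Medium, so that All stood apart from all 6 fractionated libraries. Met, the hepatocyte growth factor receptor (chr6:17463800-17573980, plus strand), repeated this order with 16.9 and 9.11 CPM in Medium, 4.81 and 2.7 in All, and 12.6 to 18.2 in Small and Large. Gphn, the scaffold protein gephyrin that also takes part in molybdenum cofactor synthesis, was at 22.9 and 19.1 CPM in Medium, 11.7 and 5.01 in All, and 14.1 to 20.7 in Small and Large. For these 3 genes the low value belonged to All rather than the high value to Medium.

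Ribosomal RNA and ribosomal protein transcripts filled most of the other places on the higher side. mt-Rnr1, the small subunit rRNA of the mitochondrial ribosome, was at 893 and 707 CPM in Medium and at 364 and 416 CPM in All (log2 difference 1.04, SE 0.32). CT010467.1, annotated as an rRNA gene on chromosome 17, was at 1225 and 1291 CPM in Medium and at 684 and 872 CPM in All. Rps27rt, a retrotransposed copy of the ribosomal protein gene Rps27, was at 73 and 65.6 CPM in Medium and at 30.4 and 41.6 CPM in All, and its reads may be shared with its parent gene. Medium stood above Small and Large as well for these 3 genes (at most 466 CPM of mt-Rnr1, 992 of CT010467.1 and 43.1 of Rps27rt).

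Ly75 led the genes lower in Medium that are not immunoglobulin segments. Ly75, an endocytic receptor of the mannose receptor family (chr2:60292103-60383303, minus strand), was at 18.2 and 24 CPM in Medium and at 52.5 and 40.9 CPM in All, a log2 difference of -1.15 (SE 0.31, edgeR adjusted p = 1). Rab5b, a small GTPase of early endosomes, was at 23.4 and 29.9 CPM in Medium and at 39.2 and 70.5 CPM in All. Ube2j1, a ubiquitin-conjugating enzyme of the endoplasmic reticulum, was the most abundant of those described, at 105 and 89.9 CPM in Medium and 153 and 142 in All. Small and Large held Ly75 at 17.1 to 28.3 CPM, overlapping Medium and below both All libraries. For Ly75 the high value thus belonged to All rather than the low value to Medium. Rab5b at 31.2 to 44.1 CPM and Ube2j1 at 130 to 136 CPM were above both Medium libraries in Small and Large.

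Cap1, which recycles actin monomers, was at 33 and 29.1 CPM in Medium and at 49 and 56.1 CPM in All. Senp5, a SUMO protease, was at 12.6 and 10.5 CPM in Medium and at 21 and 22.9 CPM in All. Dnajc28, a member of the DnaJ family, was at 3.69 and 3.88 CPM against 9.54 and 12.8, and Wdr25, a WD repeat protein, at 2.75 and 2.34 against 7.31 and 9.96. Fitted log2 differences of the 7 genes in this and the preceding paragraph ran from -1.76 (Wdr25) to -0.60 (Ube2j1). All of them were under 4-fold. Small and Large held Cap1 at 28.8 to 40.8 CPM, overlapping Medium and below both All libraries. Dnajc28 lay between the groups there, at 5.13 to 7.07 CPM. Senp5 at 20.6 to 25.9 CPM and Wdr25 at 5.13 to 10.8 CPM overlapped All in Small and Large and were above both Medium libraries.

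**Figure D3:**
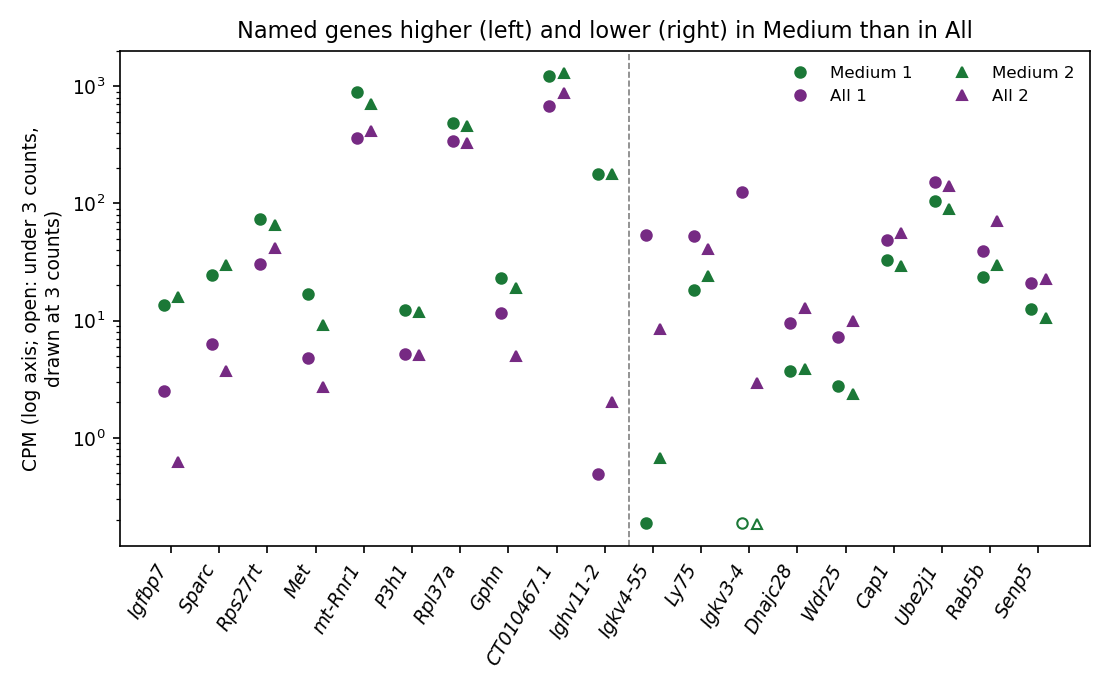
CPM on a log axis for 19 named genes in Medium 1 and 2 (green) and All 1 and 2 (purple), with circles for number 1 and triangles for number 2 and open symbols for values under 3 counts drawn at 3 counts. Most genes differ by under 4-fold, while the immunoglobulin segments Ighv11-2, Igkv4-55 and Igkv3-4 span more than 10-fold.

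Immunoglobulin variable segments gave the largest ratios of the genes named by rule in both directions. Each B cell clone expresses 1 rearranged heavy and 1 light chain segment as a rule. Ighv11-2 (chr12:114048241-114048812, minus strand) was at 179 CPM in each Medium library, 0.488 and 2.03 in All 1 and 2, at most 0.214 in Small 1, Small 2 and Large 1, and 353 in Large 2. Igkv14-126, a light chain segment outside the naming rule and picked after its values were seen, followed the same libraries, with 334 and 288 CPM in Medium 1 and 2, 1.18 and 2.7 in All, 0 in both Small libraries, 0.286 in Large 1 and 624 in Large 2. Ighv11-2 and Igkv14-126 are known as a recurrent pair in B-1 cells that bind phosphatidylcholine.

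Igkv4-55 and Igkv3-4 lay the other way. Igkv4-55 was at 0.188 and 0.677 CPM in Medium and at 53.9 and 8.5 CPM in All, a log2 difference of -6.14 (SE 1.22, edgeR adjusted p = 1, DESeq2 adjusted p = 0.000417). Igkv3-4 had no count in either Medium library and 125 and 2.93 CPM in All 1 and 2, at least 343-fold lower in Medium when 3 counts in each Medium library are taken as the floor. Most of that bound came from All 1. Of the 36 tested variable segments, 3 had both Medium libraries above both All libraries and 11 had both below, against 11.3% and 11.2% of all tested genes. Some of the 11 were near the floor, such as Igkv16-104 at 0 CPM in both Medium libraries and 0.0697 and 0.619 in All 1 and 2. Their summed level was 767 and 482 CPM in Medium and 285 and 55.6 CPM in All. Segments over 100 CPM numbered 3 in Medium 1, 2 in Medium 2, 1 in All 1 and 0 in All 2. Igkv17-127, chosen after its values were seen, reached 248 CPM in Medium 1 and had no count in Medium 2. Reads of near-identical segments were divided by estimation and are uncertain.

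DESeq2's 6 calls were Igfbp7, Igkv4-55, Slc37a2, Dsg2, Ighv1-80 and Gm10925, the last 4 outside the naming rule. Slc37a2, a sugar phosphate exchanger found in macrophages, was at 4.38 and 8.68 CPM in Medium and at 0.697 and 0.563 CPM in All (DESeq2 adjusted p = 0.0241, edgeR adjusted p = 1). Dsg2, a desmosomal cadherin, was at 0.375 and 0 CPM in Medium and at 6.69 and 9.57 CPM in All (DESeq2 adjusted p = 0.0121). Ighv1-80 had no count in Medium and 8.15 and 1.18 CPM in All, and Gm10925 had none in Medium and 1.81 and 6.02 CPM in All. Apart from Igkv4-55 in All 1, none of the 6 exceeded the 15.8 CPM of Igfbp7 in these 4 libraries.

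Cytosolic ribosomal protein genes had, of the 28 lists, the largest share of members higher in Medium within both numbers. These proteins build the ribosome, and their transcripts are known for a terminal oligopyrimidine motif, a C and a run of pyrimidines at the very start, through which mTOR signalling controls their translation. All 78 genes of the list passed the filter on low counts, and 74 were higher in Medium within both numbers, against 24.6% of all genes. Within number 1 alone 74 were higher, and within number 2 alone 77. The median log2 difference was 0.31, with 0.30 for number 1 and 0.32 for number 2, against -0.02 over all tested genes.

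Summed over the list, Medium held 30499 and 30380 CPM and All 25197 and 24781 CPM, without overlap. Of the 78 genes, 64 had both Medium libraries above both All libraries and 0 had both below. None passed the edgeR test after adjustment (adjusted p = 1 for each), and 6 had an unadjusted p under 0.05, all higher in Medium. Rpl3 was at 1195 and 1400 CPM in Medium and at 1062 and 1252 CPM in All, and Rplp0, of the ribosomal stalk, at 1213 and 1269 CPM against 1127 and 1035. In Rpl3 the groups overlapped, and in Rplp0 they did not.

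Of the 6 members with an unadjusted p under 0.05, 5 are described here, and 4 of these, like Rpl5, fall outside the naming rule. Rpl37a (chr1:72711290-72713813, plus strand) was at 486 and 457 CPM in Medium and at 339 and 326 CPM in All, a log2 difference of 0.50 (SE 0.17, edgeR adjusted p = 1). Rps26 was at 209 and 167 CPM in Medium and at 121 CPM in each All library, a log2 difference of 0.63 (SE 0.24). Rps28 was at 271 and 235 CPM against 180 and 170, Rpl37 at 71.4 and 81.9 against 56.5 and 51.2, and Rpl27a at 121 and 111 against 79.2 and 87.8. Rpl5, which guards the level of p53 when ribosome assembly falters, was the only member lower in Medium within both numbers, at 25 and 28.8 CPM against 27.2 and 46.3.

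To look for a pyrimidine run near the start of these members, the 30 bases around their annotated start are printed. They span 15 before and 15 from the start onward (RefSeq, GRCm38.p6, transcribed strand). Shown are the 5 members with an unadjusted p under 0.05 that are described above. The sixth such member, Rps14, which is outside the naming rule, is not shown. Its edgeR unadjusted p (0.0397) was smaller than that of Rpl27a (0.0435), so the 5 are not the 5 smallest. Capitals mark a C followed by at least 7 bases that are each C or T, searched on the transcribed strand only.
Rpl37a: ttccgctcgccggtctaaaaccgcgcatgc
Rps28: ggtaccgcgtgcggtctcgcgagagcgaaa
Rps26: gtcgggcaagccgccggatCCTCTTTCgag
Rpl37: agtttcctgggcggaagcttatccacagga
Rpl27a: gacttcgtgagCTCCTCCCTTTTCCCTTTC
These windows are Rpl37a chr1:72711245-72711274, Rps28 chr17:33824548-33824577 (minus strand), Rps26 chr10:128626492-128626521 (minus strand), Rpl37 chr15:5116598-5116627 and Rpl27a chr7:109519180-109519209. The run was found in Rps26 and Rpl27a and not in the other 3. Neither run began at the annotated start itself. The search asked for a set length anywhere in the window, around a start that may differ from the one used in these cells. A window without the run therefore does not show that the transcript lacks the motif. Of the 57 ribosomal protein genes with an entry in the promoter table, 25 held it (43.9%), against 10.8% of all 27025 genes there. The RefSeq window of Rpl37a lies wholly before the GENCODE start of the gene given above, so for this gene the absence of the run depends on which start is taken.

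**Figure D4:**
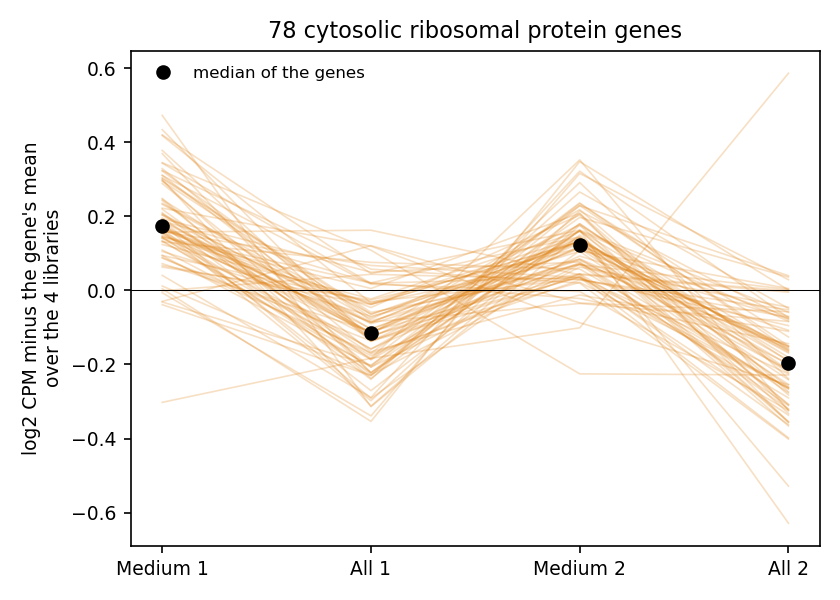
One line for each of 78 cytosolic ribosomal protein genes, showing log2 CPM minus that gene's mean over Medium 1, All 1, Medium 2 and All 2, with black points at the median of the genes. Medium lies above All within both numbers for 74 of the 78, and the line that climbs to All 2 is Rpl5.

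Transcript length moved with this result. Tested genes of up to 1000 bases other than the ribosomal protein genes, 1622 in number, lay at a median log2 difference of 0.16 (number 1 gave 0.10 and number 2 gave 0.24), and 37.5% of them were higher in Medium within both numbers against 24.6% of all genes. Genes of 501 to 1000 bases had a median of 0.15 and those of 1001 to 2000 bases 0.05. Those of 2001 to 4000 bases had -0.04 and those of 4001 to 8000 bases -0.09. The 729 genes over 8000 bases lay at -0.006, with 0.10 within number 1 and -0.13 within number 2. Length was that of the longest annotated transcript of a gene. By it the ribosomal protein list had a median of 1076.5 bases, and 34 of its genes had up to 1000 bases. The median of the ribosomal protein list, 0.31, was above that of each length class, and the highest of those was 0.21, for genes of up to 500 bases. The part of length in the ribosomal protein difference was not tested. Relative to All, the same list had medians of -0.16 and -0.33 in Small 1 and 2 and of 0.24 and 0.12 in Large 1 and 2, so Medium stood above both extremes within both numbers.

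Ribosome biogenesis factors, which assemble rRNA and ribosomal proteins in the nucleolus, differed less. Of 28 members, 14 were higher within both numbers and 3 lower, and the median was 0.09 (0.14 within number 1 and 0.03 within number 2). No member of the list had an unadjusted p under 0.05.

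Transcripts of oxidative phosphorylation, the respiratory chain and ATP synthase, also leaned towards Medium. Of 51 nuclear-encoded members, 40 were higher within both numbers and 1 lower, against 24.6% and 24.9% of all genes, with a median of 0.22 (0.09 within number 1 and 0.41 within number 2). The groups overlapped in most of them: 6 had both Medium libraries above both All libraries and 1 had both below. Atp5b, the catalytic beta subunit of ATP synthase, was at 1795 and 1641 CPM in Medium and at 1815 and 1431 CPM in All. Atp5a1, the alpha subunit, was at 965 and 989 CPM against 871 and 775, and Uqcrc1, a core subunit of complex III, at 375 and 383 CPM against 331 and 291. Sdha, the flavoprotein of succinate dehydrogenase, was the member lower in both, at 593 and 621 CPM against 691 and 668. The list lay higher still in Large, by 0.38 and 0.54 over All within numbers 1 and 2.

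Mitochondrially encoded transcripts were higher mainly within number 1. All 13 were higher there, and 7 of 13 within number 2, with medians of 0.58 and 0.01. mt-Co1, the most abundant of them, was at 2757 and 3027 CPM in Medium and at 2115 and 2830 CPM in All. mt-Co3 was at 330 and 279 CPM in Medium and at 53.9 and 128 CPM in All (log2 difference 1.75, SE 0.73), and mt-Nd3 at 69.8 and 60.6 CPM against 46.7 and 23.2 (0.90, SE 0.36), the 2 members with an unadjusted p under 0.05, of which mt-Co3 is outside the naming rule. mt-Rnr2, the large subunit rRNA of the mitochondrial ribosome (chosen after its values were seen), was at 3311 and 2937 CPM in Medium and at 1813 and 2239 CPM in All. Mitochondrial genes together took 1.68% and 1.44% of counts in Medium and 1.04% and 1.35% in All.

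HSC identity genes did not move one way. Of 30 members, 4 were higher in Medium within both numbers and 7 lower, and the median was 0.18 within number 1 and -0.33 within number 2. Their summed level was 5102 and 9050 CPM in Medium and 4833 and 10916 CPM in All, with the larger difference between numbers. Lmo2, a transcriptional adaptor required for blood formation, was at 551 and 1017 CPM in Medium and at 526 and 1102 CPM in All. Ctnnal1, an alpha-catulin gene expressed in HSCs, had the smallest p of the list, at 20.8 and 18 CPM in Medium and 27.4 and 28.3 CPM in All (log2 difference -0.52, SE 0.33). In Large the list was lower than in All within both numbers (-1.10 and -0.68), and in Small slightly lower (-0.25 and -0.22).

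Multipotent and lymphoid-primed progenitor genes differed within number 2 and not within number 1. The median over 13 members was -0.15 within number 1 and 1.3 within number 2. Dntt, the template-independent DNA polymerase of lymphoid precursors, was at 20.3 and 257 CPM in Medium 1 and 2 and at 11.8 and 13.9 CPM in All 1 and 2, with 232 CPM in Small 2 and 384 CPM in Large 2. Flt3, the receptor of multipotent progenitors, was at 47.8 and 678 CPM in Medium and at 40.9 and 387 CPM in All, and Cd34 at 314 and 1128 CPM against 350 and 911. All 2 thus held less Dntt than the 3 other libraries numbered 2. Megakaryocyte and platelet genes, which many HSCs express at low level, had 7 of 17 tested members higher within both numbers and 1 lower (median 0.53 within number 1, -0.03 within number 2), and the platelet chemokine gene Ppbp was at 20.2 and 11.5 CPM against 12.7 and 7.82.

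Cell cycle transcripts also separated numbers rather than gates. The G1/S list, genes of DNA replication, had a median of -0.05 within number 1 and 0.19 within number 2, and 8 of 30 members were higher within both. Rrm1, a subunit of ribonucleotide reductase, was at 593 and 299 CPM in Medium and at 694 and 329 CPM in All, and Pold1, the catalytic subunit of DNA polymerase delta, at 142 and 122 CPM against 124 and 113. The G2/M list, genes of mitosis, lay at -0.42 for number 1 and at 1.06 for number 2, with summed levels of 2806 and 1311 CPM in Medium and 3760 and 777 CPM in All. Cenpe, a kinetochore motor, was at 25.5 and 9.11 CPM in Medium and at 15.4 and 3.49 CPM in All. Over All, Large was higher in both lists within both numbers (0.54 and 1.33 for G1/S, 0.29 and 2.30 for G2/M).

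Of 18 genes of cell cycle inhibition and quiescence, 5 were higher in Medium within both numbers and 6 lower (median -0.08 within number 1, 0.04 within number 2). Klf2, a factor that keeps lymphocytes quiescent, was at 26 and 21.1 CPM in Medium and at 31.1 and 31.4 CPM in All. Among 20 targets of p53, 10 were higher within both numbers and 5 lower. Pmaip1, which encodes the pro-apoptotic protein Noxa, was at 52.7 and 70.7 CPM in Medium and at 43.8 and 38.3 CPM in All (log2 difference 0.59, SE 0.22), while Ccng1, cyclin G1, lay the other way at 84.7 and 73.3 CPM against 108 and 107 (-0.45, SE 0.18). Eda2r, a receptor of the tumour necrosis factor family and the third member with an unadjusted p under 0.05, had no count in Medium and 1.95 and 0.113 CPM in All.

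Signalling and metabolic lists had medians near 0, with members on both sides. Median log2 differences were -0.03 for glycolysis (18 genes), -0.01 for the mTOR pathway (20), 0.09 for the integrated stress and unfolded protein responses (23), -0.09 for the interferon response (30), -0.03 for the actin cytoskeleton (22) and -0.03 for lysosome and autophagy (26). Members higher and lower within both numbers were 3 and 4 for glycolysis, 6 and 3 for mTOR, 11 and 2 for stress, 4 and 10 for interferon, 3 and 9 for actin, and 7 and 8 for lysosome and autophagy. Single members ran from -2.03 to 0.72 in the stress list and from -0.87 to 2.57 in the actin list, and the interferon median ran from -0.49 without Medium 2 to 0.58 without All 2. Hspa5, the chaperone of the endoplasmic reticulum, was at 1638 and 1639 CPM in Medium and at 1526 and 1403 CPM in All. Rptor, the scaffold of mTOR complex 1, was at 26.1 and 29.4 CPM against 21.5 and 15.6, without overlap. Flna, the actin crosslinker filamin A, was at 492 and 444 CPM against 744 and 571, also without overlap.

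Immediate early genes, switched on rapidly by growth signals or by handling of cells, had 10 of 20 members higher within both numbers and 3 lower, with medians of 0.24 and -0.01. Jun, a subunit of the AP-1 factor, was at 904 and 868 CPM in Medium and at 770 and 711 CPM in All. Nr4a1, a nuclear receptor induced by stimulation and also expressed in resting HSCs, was at 1030 and 3094 CPM against 988 and 3542. Antigen presentation genes, 16 in number, had medians of 0.18 and -0.01. In the stress list, Chac1, a target of the integrated stress response, was at 0.625 and 0.308 CPM in Medium and at 1.6 and 2.25 CPM in All. None of the 28 lists held a gene past the edgeR threshold.

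**Figure D5:**
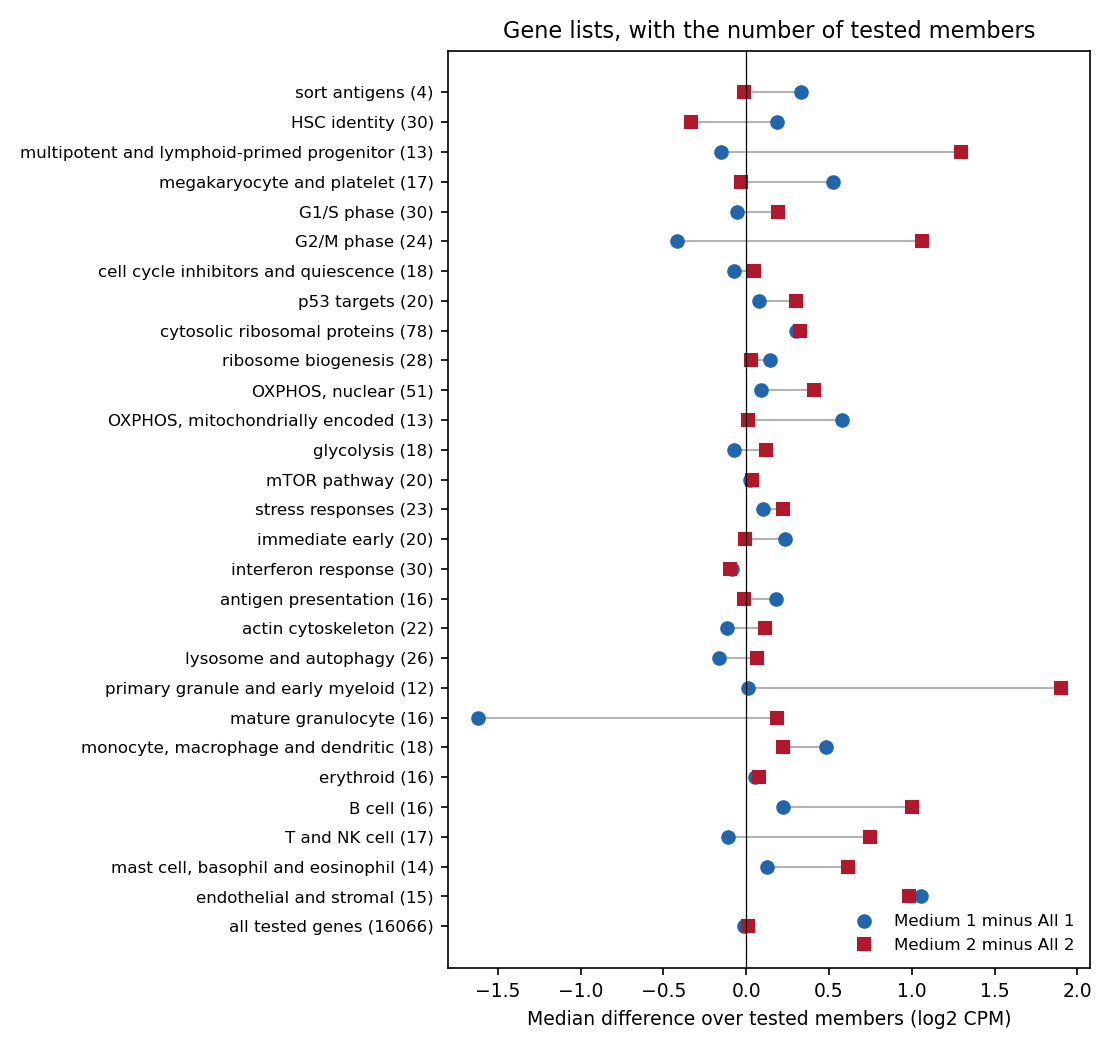
Median log2 CPM difference over the tested members of each gene list (number of members in brackets), with circles for Medium 1 minus All 1 and squares for Medium 2 minus All 2. The ribosomal protein list has close medians at 0.30 and 0.32, while G2/M, progenitor and granulocyte lists change sign or size between numbers.

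Markers of other cell types differed strongly between these libraries, in several lists through a single library. Mature granulocyte genes summed to 56569 CPM in All 1, against 17584 CPM in Medium 1, 5069 in Medium 2 and 3946 in All 2. All 16 members were lower in Medium within number 1 (median -1.62) and 11 of 16 were higher within number 2 (0.19). Ngp, a granule protein of neutrophil precursors, was at 4373 and 1203 CPM in Medium and at 17007 and 990 CPM in All. The groups overlapped in every member, and the widest gap was between the 2 All libraries.

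Primary granule and early myeloid genes were low in All 2 instead. Their sum was 13064 and 7708 CPM in Medium and 12659 and 3100 CPM in All, with medians of 0.01 within number 1 and 1.90 within number 2. Mpo, myeloperoxidase, was at 5516 and 2404 CPM in Medium and at 5276 and 132 CPM in All. Elane, neutrophil elastase, was at 2117 and 935 CPM in Medium and at 2123 and 60.7 CPM in All, equal within number 1 and more than 10-fold apart within number 2. Irf8, a factor of monocyte and dendritic commitment, had the smallest p of the monocyte, macrophage and dendritic list, at 54.2 and 55.4 CPM in Medium and at 35.3 and 12.9 CPM in All. Small held Irf8 at 146 and 56.8 CPM and Large at 108 and 118 CPM, all above both Medium libraries. Both Mpo and Cd48 transcripts were thus lowest in All 2.

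B cell genes had sums of 1673 and 1634 CPM in Medium and 839 and 342 CPM in All, carried by Ighm (814 and 1050 CPM against 358 and 143) and Igkc (788 and 424 against 407 and 106), the constant regions of the mu heavy and kappa light chains. The 14 other tested members reached at most 57.3 CPM in these 4 libraries. Sums of the list were 2174 and 374 CPM in Small 1 and 2 and 299 and 5977 CPM in Large 1 and 2. Both Medium sums thus lay within the range of the Small and Large libraries. Endothelial and stromal genes had 8 of 15 tested members higher within both numbers and 0 lower, against 24.6% and 24.9% of all tested genes. In 5 of the 15, both Medium libraries stood above both All libraries, against 11.3% of all tested genes. The median was 1.15 (1.06 within number 1 and 0.98 within number 2), and it fell to 0.43 under a stricter filter on low counts. Cxcl12, the chemokine that retains HSCs in the marrow niche, was at 90.5 and 48.9 CPM in Medium and at 31.8 and 20.7 CPM in All (log2 difference 1.41, SE 0.55), and Kdr, the receptor of vascular endothelial growth factor (picked after its values were seen), at 6.25 and 8.38 CPM against 5.64 and 0.957. Cxcl12 was at 79.3 and 26.4 CPM in Small 1 and 2 and at 53 and 55.9 CPM in Large 1 and 2. Medium 2 thus lay below Small 1 and both Large libraries in Cxcl12. Sums of the list overlapped between the groups, at 325 and 343 CPM in Medium and 209 and 353 CPM in All.

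The more abundant endothelial genes did not lean to Medium. Tie1, a receptor tyrosine kinase of endothelium and HSCs, was at 62 and 64.5 CPM in Medium and at 60.4 and 111.8 CPM in All, and Pecam1, an adhesion molecule shared by endothelium and blood cells, at 37.9 and 81.1 CPM against 38.9 and 78.4. Cdh5, the cadherin of endothelial junctions (picked after its values were seen), was at 0.75 and 1.17 CPM in Medium and at 0.139 and 0 CPM in All, and Col1a1 and Bglap did not pass the filter on low counts. Sparc is itself a member of this list, and Igfbp7 is not. The part of endothelial and stromal cells in the differences of these genes was not tested. The parts of myeloid cells and of B cells in the ribosomal protein difference were not tested either.

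Among the remaining marker lists, erythroid genes (16 tested) had medians of 0.05 and 0.08 within numbers 1 and 2, and T and NK cell genes (17 tested) of -0.11 and 0.75. Mast cell, basophil and eosinophil genes (14 tested) had medians of 0.13 and 0.61, with 4 markers at 0 in all Medium and All libraries. Prg2, the eosinophil major basic protein, was at 231 and 10.8 CPM in Medium and at 224 and 7.99 CPM in All, which follows the number and not the gate.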

How the data were processed

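RNA from 10000 sorted HSCs per library was measured by RNA-seq after low-input cDNA synthesis, per the labels' protocols. Per the submitters' processing notes, the tools were SAMtools 1.3, RSEM 1.3.0 and STAR 2.5.3a and the build was mm10. The sources used here do not name the annotation or the strand setting. The authors deposited estimated counts per gene, as whole numbers not scaled between libraries, and log2(TPM + 1) values, which served as an alternative. No other columns of per-sample values were present. Of 50686 gene IDs, 50462 matched a symbol in GENCODE M21 (GRCm38, which is mm10). IDs without a match took up to 0.0359% of the counts of a library.

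Counts were tested with edgeR 4.0.16 (R 4.3.3): TMM scaling, filterByExpr with a minimum count of 10, a robust quasi-likelihood fit of the 8 libraries with a term for group alone (4 residual degrees of freedom), two-sided p-values and Benjamini-Hochberg adjustment at 0.05. DESeq2 1.42.0 and limma 3.58.1 were alternatives. CPM values were scaled by TMM, and log2 CPM used a prior count of 2. P-values reflect the spread among these libraries alone, which may be technical. Floors of 3 counts take in counting error alone, because reads were amplified without molecular identifiers. The main script was tested on simulated counts. These were drawn independently for each library, with no effect shared by libraries of a number. The simulation therefore does not cover spread shared within a number.

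Gene lists (28, holding 618 genes), the promoter motif and the groups compared were chosen with earlier results of these data known. Genes named are the 10 in each direction with the smallest unadjusted p (mean of at least 5 CPM, an ordinary symbol, same direction within both numbers, no overlap between groups), the 4 sort antigens and, in each list, members among the 3 most abundant or with the smallest p; exceptions are stated. A few genes that the rule names are not reported here. Lists are described by counts and medians without a test.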

Additional observations from a re-analysis of the deposited data

How the results depend on the processing

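The count of 0 genes held with DESeq2 size factors, a stricter filter, the 4 Medium and All libraries alone, limma-voom, limma on log2 TPM, and each library left out (where the lone library of a group is assumed to vary like the others). It was 48 without a filter on low counts (16 higher, 32 lower), although all 48 genes were among the 16066, 6 by DESeq2 and 12 by DESeq2 with the number as a block, an alternative added after the data were seen. The 48 include Igfbp7, Sparc, Ighv11-2, Igkv14-126, Igkv17-127, Igkv3-4, Igkv4-55, Ighv1-80, Ighm, Igkc, Dntt, mt-Co3, Ngp, Dsg2 and Gm10925. The 12 include Rpl37a, Rps28, Sparc, Met, Igfbp7, Igkv4-55 and Dsg2, but not Slc37a2, Ighv1-80 or Gm10925. The cause was not tested. Unadjusted p under 0.05 was reached by 938 genes without All 1 and by 157 without Medium 2. Deviations from the group means correlated at 0.374 between same-numbered Medium and All libraries, but the labels do not say what a number marks. With the replicate block, edgeR called 0 genes (845 at an unadjusted p under 0.05), limma-voom 0 (also added), and 0 over the 4 libraries alone (smallest adjusted p 0.0629). Over genes with a mean of at least 10 CPM, Medium stood 0.192 (number 1) and 0.278 (number 2) from All. It remained the nearest size fraction to the All library of its number under the 5 alternatives tried. The ribosomal protein median ran from 0.27 to 0.37 over 15 alternatives, and the nuclear oxidative phosphorylation median from -0.05 (without All 2) to 0.56. The endothelial and stromal median ran from 0.43 (stricter filter on low counts) to 2.86 (without All 1).

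Leaving out 1 library turned the direction of these uncalled log2 differences, given as lowest and highest: Kit -0.44 to 0.20, Ly6a -0.96 to 1.99, Slamf1 -1.14 to 0.25, Atp5b -0.079 to 0.26, Nr4a1 -1.08 to 1.06, Lmo2 -0.51 to 0.58, Cd34 -0.95 to 1.04, Flt3 -2.11 to 3.15, Rrm1 -0.77 to 0.44, Cenpe -0.049 to 2.31, Mpo -0.41 to 4.91, Elane -0.48 to 4.65, Ngp -2.90 to 1.49, Prg2 -3.42 to 3.92, Tie1 -0.82 to 0.067, Pecam1 -0.58 to 0.61 and Igkv17-127 -6.23 to 8.69. Pecam1 was also at -0.016 by limma-voom and -0.0021 on log2 TPM, against 0.02. No named ribosomal protein gene turned direction under any alternative run. Precision is limited by 2 libraries a group and by depth, where a count of 3 is up to 0.209 CPM.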

Other observations

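Beside genes described above (Igfbp7, Sparc, Ighm, Igkc, Dntt, mt-Co3 and immunoglobulin segments), the 48 genes that edgeR called without a filter on low counts included mature granulocyte genes (S100a8, S100a9, Ngp, Ltf, Camp), which All 1 held at the highest level of the 4 libraries. For S100a8 the values were 4279 and 1077 CPM in Medium 1 and 2 and 10799 and 803 CPM in All 1 and 2, and for Ltf 1249 and 356 CPM against 4929 and 375, so the groups overlapped in both genes. Wfdc17, a secreted protein of myeloid cells, was called in the other direction. It was at 31.3 and 291 CPM in Medium and at 20.4 and 92.4 CPM in All, and the groups overlapped here too. Small 1 and 2 held Wfdc17 at 31.1 and 178 CPM, and Large 1 and 2 at 7.58 and 113 CPM, so it followed the number.

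Promoter letters were searched in 2 further lists, from 250 bases before to 50 after the annotated start (RefSeq, GRCm38.p6), on both strands. The interferon-stimulated response element (GAAA, any 2 bases, GAAA) was found in 10 of 21 interferon response genes with an entry (47.6%), against 3.99% of 27025 genes. The E2F sites TTTCCCGC, TTTGGCGC and TTTCGCGC were found in 10 of 24 G1/S genes with an entry (41.7%), against 2.12%. Neither list had a member past an unadjusted p of 0.05 between Medium and All. These shares describe the lists as they were chosen, and they say nothing about a difference between Medium and All.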
